A study of Mus musculus with 96 samples.

Results

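Immunoprecipitated RNA (IP) was set against whole-tissue RNA (input) in the striatum of Q175 mice at 12 months of age, to read which transcripts the IP enriched and which it left behind in diseased tissue. The 8 libraries, 4 IP and 4 input, were taken by their labels alone out of 96 in the series. Q175 is a knock-in model of Huntington's disease in which the mouse Htt gene carries an expanded CAG repeat. The Q175 mice and the WT mice that served as controls were C57BL/6J, and every mouse, WT included, had received an AAV injection into the striatum. The same ratio was taken, for comparison, in WT mice at 12 months and in Q175 mice at 6 and at 2 months, each from 4 IP and 4 input libraries. Both RNA types were polyA RNA per the labels. The labels name neither the cargo of the virus nor the tag used for the IP. As background from the published study and not from the labels, the virus carried a tagged copy of the ribosomal protein Rpl22 under a short Gfap promoter, so that the IP recovers RNA bound to ribosomes of the cells that express the tag, while all cells keep their own untagged Rpl22. The labels tie no IP library to an input library and do not say whether each library came from a separate mouse, so p-values measure the spread between these libraries, which may be technical. In such tissue RNA, fewer cells of a type and less RNA per cell cannot be told apart.

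Astrocytes are glia that clear glutamate and GABA from the synaptic space, take up potassium, move water at blood vessels, convert glutamate to glutamine and supply neurons with lactate and cholesterol. In the striatum they surround medium spiny neurons, the cells that are lost in Huntington's disease. A transcript is enriched in such an IP when a larger share of it sits on tagged ribosomes than is the case for the average transcript of the tissue, so a ratio joins the cell type in which a gene is active with how much of its RNA is on ribosomes. RNAs that are not translated tend to be left behind, whatever cell makes them.

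The 4 IP libraries of Q175 mice at 12 months held 42644553 to 54688117 reads in genes, and the 4 input libraries 28988888 to 41259849. Values are given as CPM, reads of a gene per 1000000 reads, with library sizes adjusted by TMM factors (trimmed means of log ratios between libraries) over the 8 libraries, and a log2 ratio is IP over input with its standard error. Replicates were all distinct: between any pair of the same group the counts differed by more than sampling noise, with a chi-square of 10.2 to 73.8 per degree of freedom over 24 pairs of the Q175 and WT libraries at 12 months. IP replicate 3 stood apart from the other 3. Its mean correlation with its group was 0.986, against 0.99 to 0.991 for the others, and the spread of its deviations from the group mean was 0.206 on the log2 scale, against 0.136 to 0.15. The summed level of 30 astrocyte markers was 42500, 40000, 56700 and 40000 CPM in IP and 6810, 7130, 6800 and 7940 CPM in input, so IP replicate 3 was the highest. The summed level of 25 medium spiny neuron markers was 6330, 4750, 3830 and 6130 CPM in IP and 9890, 10600, 10900 and 9480 CPM in input, and here IP replicate 3 was the lowest. Some of the results that rest on this library are given below with and without it, and the others with all 4 IP libraries only.

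Markers of the cell types that striatal tissue holds were read in the IP and input libraries. The lists were chosen with earlier results of these data known, so this is a description and no independent check. All 30 astrocyte markers were higher in IP, and each was enriched, meaning at least 2-fold at an adjusted p below 0.05. Astrocyte markers were not the only ones higher in IP, since 18 of 24 oligodendrocyte markers, 10 of 13 oligodendrocyte precursor markers, 14 of 18 interneuron markers and 11 of 13 ependymal and choroid plexus markers were higher as well, against 35.9% of all genes. The oligodendrocyte markers summed to 11400, 15800, 14100 and 12900 CPM in IP and 7050, 7910, 6740 and 8070 CPM in input, with all 4 IP libraries above all 4 input libraries. Microglial markers summed to 134, 190, 133 and 131 CPM in IP and 3560, 2660, 2300 and 3220 CPM in input, and no IP library came near an input library. No marker measured in these lists was at 0 in all 8 libraries.

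**Figure D1:**
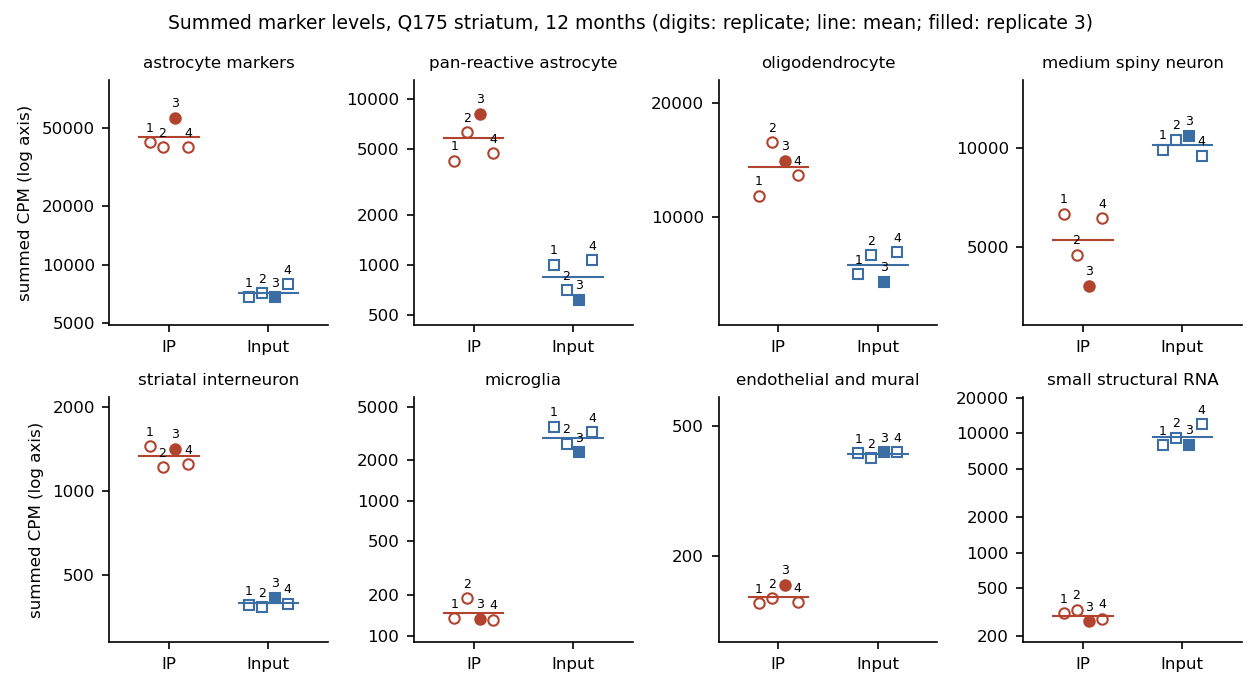
Summed level of 8 gene lists in each library of Q175 striatum at 12 months, in CPM on a log axis; each symbol is 1 library with its replicate number, IP left of input, lines are means and replicate 3 is filled. Astrocyte markers sat at 40000 to 56700 CPM in IP, above 6800 to 7940 CPM in input, and microglial markers at 131 to 190 CPM in IP, below 2300 to 3560 CPM in input.

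Promoter windows of 2 enriched and 2 depleted genes are printed to show where a short letter pattern lies in each of them. Each is the 200 bases before the transcript start, 5′ to 3′ in the direction of the gene, from RefSeq on GRCm38.p6. Capitals mark TTGGCA, a half-site of the NFI factors, in Igfbp5 and its reverse complement TGCCAA in Lcn2, and they mark GAGGAAGT, the pattern bound by PU.1, the factor that sets up microglia and other myeloid cells, or its reverse complement ACTTCCTC, in C1qc and Ly6c2. Each window is marked for its own pattern only, and the window of C1qc also holds TTGGCA, left in small letters.
Igfbp5, chr1:72874866-72875065, minus strand: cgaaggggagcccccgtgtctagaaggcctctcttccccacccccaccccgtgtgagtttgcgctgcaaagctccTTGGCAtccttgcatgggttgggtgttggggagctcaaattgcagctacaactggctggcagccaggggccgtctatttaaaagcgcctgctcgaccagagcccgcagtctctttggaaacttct
Lcn2, chr2:32387740-32387939, minus strand: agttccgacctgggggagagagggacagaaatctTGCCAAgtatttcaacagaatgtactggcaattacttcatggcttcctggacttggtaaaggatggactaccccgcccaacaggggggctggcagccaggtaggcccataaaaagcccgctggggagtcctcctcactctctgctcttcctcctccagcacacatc
C1qc, chr4:136892915-136893114, minus strand: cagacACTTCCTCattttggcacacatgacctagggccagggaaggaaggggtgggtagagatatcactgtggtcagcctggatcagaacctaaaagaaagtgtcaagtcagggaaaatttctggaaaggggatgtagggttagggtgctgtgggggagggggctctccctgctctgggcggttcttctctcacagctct
Ly6c2, chr15:75111972-75112171, minus strand: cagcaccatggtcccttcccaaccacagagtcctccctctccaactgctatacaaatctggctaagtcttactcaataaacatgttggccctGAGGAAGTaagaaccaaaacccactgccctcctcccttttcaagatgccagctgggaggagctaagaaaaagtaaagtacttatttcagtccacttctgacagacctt
Igfbp5 binds insulin-like growth factors, Lcn2 is an iron-carrier binding protein of reactive astrocytes, C1qc is a chain of complement C1q and Ly6c2 is a surface protein of monocytes. Searched on both strands in windows of 300 bases (250 before to 50 after the start), GAGGAAGT was found in 98 of 1564 depleted genes (6.27%), 23 of 1531 enriched genes (1.5%) and 332 of all 11514 genes with a window (2.88%). TTGGCA was found in 198 of the enriched genes (12.9%), 186 of the depleted genes (11.9%) and 1309 of all genes (11.4%), which are close to each other, and AACAAT, a pattern bound by SOX factors, in 7.05%, 6.46% and 5.84% of the same sets. Among marker lists TTGGCA was found in 3 of 25 astrocyte markers with a window (12%) and in 4 of 17 microglial markers (23.5%). Only 74% of the genes tested had a window, below the 80% needed to read such a share as a property of the gene sets, so the shares are a description of the genes with a window. A match is a run of letters and not a site shown to be bound.

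Most of the measured transcriptome differed between the RNA types. Of 15562 genes tested, 11568 were called at an adjusted p below 0.05 by limma (74.3%), 5589 higher in IP (35.9%) and 5979 lower (38.4%). Enriched genes numbered 2068 (13.3%) and depleted genes, at least 2-fold lower, 2324 (14.9%). Counts of list members are to be read beside these shares and those of the called genes. At 4-fold there were 450 enriched and 920 depleted genes, so the strong changes lay more often on the depleted side. In 10817 genes (69.5%) no IP library overlapped an input library. The balance depends on scaling: with the deposited library totals and no TMM factors, 12169 genes were called, of which 30.8% were higher in IP, against 48.3% with TMM, and the median log2 ratio over all genes was -0.31, against -0.03. A log2 ratio near 0 therefore has no fixed direction here, and ratios are read relative to the median of all genes.

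**Figure D2:**
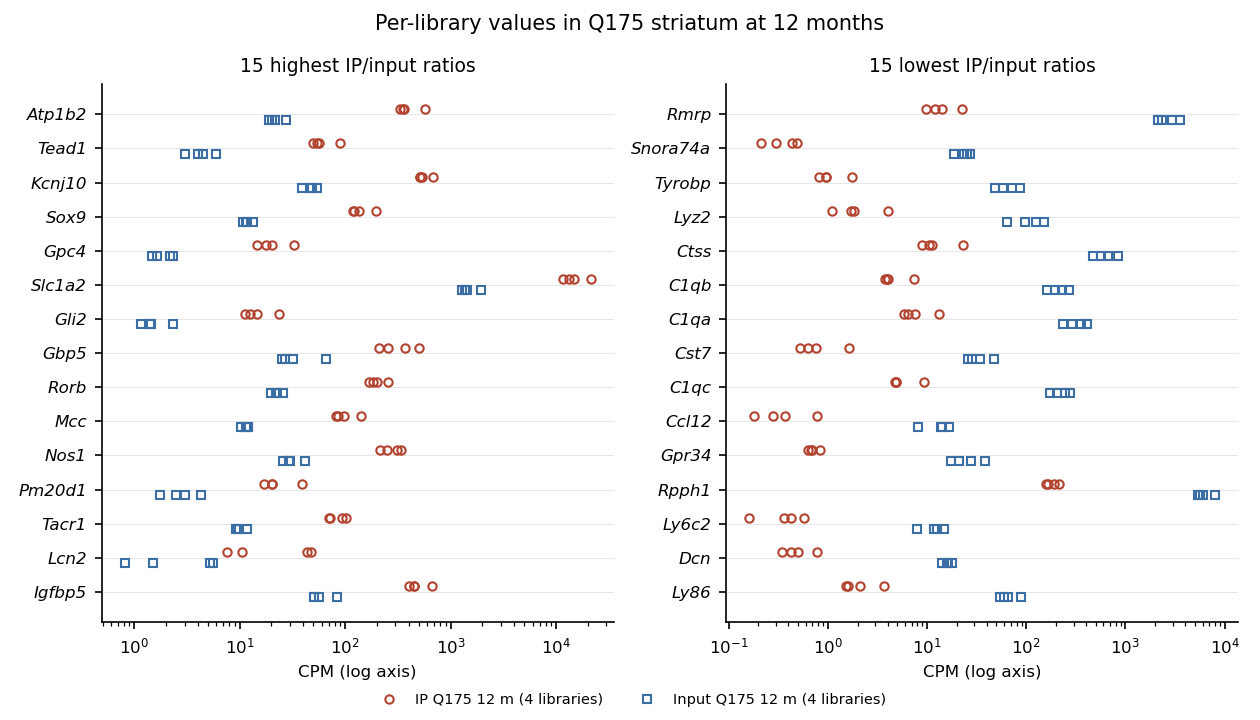
IP over input in Q175 striatum at 12 months for the 15 highest and the 15 lowest log2 ratios, taken over called genes that averaged 5 CPM or more and whose groups did not overlap; points are CPM of each library on a log axis, IP above input for each gene. Atp1b2 heads the enriched genes with 329 to 569 CPM in IP and 18.9 to 27.4 CPM in input, and Rmrp is the most depleted with 9.84 to 22.4 CPM in IP and 2150 to 3590 CPM in input.

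The 15 highest ratios, taken over called genes that averaged 5 CPM or more and whose groups did not overlap, included genes of ion pumping, potassium and glutamate uptake and astrocyte identity. Atp1b2, the β2 subunit of the sodium pump (GRCm38, chr11:69599736-69605942, minus strand), had 329, 359, 569 and 352 CPM in the IP libraries, against 21.6, 20.2, 18.9 and 27.4 CPM in the input libraries. That gave a log2 ratio of 4.17 ± 0.17 (adjusted p 7.73e-09, limma), an 18-fold difference with no overlap; without IP replicate 3, the highest of its group, the log2 ratio was 4. Kcnj10, the inwardly rectifying potassium channel Kir4.1 whose loss in astrocytes has been linked to Huntington's disease models (chr1:172341210-172374085, plus strand), had 518, 531, 681 and 514 CPM in the IP libraries, against 47.7, 48.5, 38.8 and 54 CPM in the input libraries. The log2 ratio was 3.57 ± 0.11 (adjusted p 2.71e-09, limma). Slc1a2, the main glutamate transporter of astrocytes (chr2:102658659-102790784, plus strand), had 15000, 11700, 21300 and 13400 CPM in the IP libraries, against 1280, 1430, 1370 and 1930 CPM in the input libraries. The log2 ratio of IP over input was 3.33 ± 0.2 (adjusted p 8.9e-08, limma), or 3.17 without IP replicate 3. In all of these the IP libraries lay far above every input library, and IP replicate 3 was the highest.

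Transcription factors and receptors made up much of the rest of the top 15. Sox9, which sets glial fate, had 118, 122, 195 and 135 CPM in the IP libraries, against 11.7, 11.6, 10.8 and 13.3 CPM in the input libraries, a log2 ratio of 3.56 ± 0.14. Tead1, the DNA-binding partner of YAP in the Hippo pathway (chr7:112679318-112906807, plus strand), had 56.2, 49.4, 89.9 and 53.7 CPM in the IP libraries, against 3.06, 4.01, 4.5 and 5.92 CPM in the input libraries. Its log2 ratio was 3.83 ± 0.21, and IP replicate 3 was again the highest. The Hedgehog factor Gli2 (3.27 ± 0.25), the nuclear receptor Rorb (3.14 ± 0.12) and the substance P receptor Tacr1 (3.05 ± 0.12) were enriched by similar log2 ratios. Gpc4 (3.44 ± 0.24), a glypican that astrocytes secrete, and Igfbp5 (3.03 ± 0.18), whose promoter is printed above, were also among them. Nos1, the neuronal nitric oxide synthase, had 309, 212, 338 and 250 CPM in the IP libraries, against 25.8, 29.2, 30.2 and 41.2 CPM in the input libraries, so a gene best known from a class of striatal interneurons stood between astrocyte genes with a log2 ratio of 3.13 ± 0.16. Mcc (3.13 ± 0.15), whose exons overlap A930012L18Rik on the other strand, and Pm20d1 (3.06 ± 0.29) complete the list together with Gbp5 and Lcn2, which are taken up with the reactive genes. Each of these genes was called at an adjusted p of 0.00258 or below (limma).

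Uptake and buffering genes were enriched nearly as a block. Of 20 measured genes of transmitter uptake, potassium and water handling, 19 were higher in IP, 17 of them enriched, and 1 was lower, with a median log2 ratio of 1.89, against 35.9% of all genes higher and a median of -0.03. Summed, they stood at 26200 to 38100 CPM in IP and 5570 to 6310 CPM in input. Aqp4, the water channel of astrocyte endfeet, had 1260, 1460, 1410 and 1180 CPM in the IP libraries, against 225, 191, 182 and 215 CPM in the input libraries, a log2 ratio of 2.71 ± 0.09. Slc6a11, the GABA transporter GAT3, had 341, 369, 429 and 371 CPM in the IP libraries, against 61.1, 64.5, 65.6 and 55.1 CPM in the input libraries, a log2 ratio of 2.61 ± 0.08. Glul, glutamine synthetase, was enriched by 1.9 ± 0.09, Glud1, which oxidises glutamate, by 1.42 ± 0.06 and the neutral amino acid transporter Slc1a4 by 1.89 ± 0.07.

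The subunits of the sodium pump split within 1 family, with 6 of 9 higher in IP, 3 of them enriched, and 1 depleted; with the deposited totals 6 were higher and 2 lower. Among the β subunits, Atp1b2 led the named genes and Atp1b3 was higher by 0.71 ± 0.07, while Atp1b1, at 790 to 980 CPM in IP and 845 to 905 CPM in input, had a log2 ratio of 0.02 ± 0.08 (adjusted p 0.862, limma) and shares exon bases with Nme7 on the other strand. With the deposited totals and no TMM factors the ratio of Atp1b1 turned negative, -0.27 (adjusted p 0.0149, limma), so it has no fixed direction. Of the small regulatory FXYD subunits, Fxyd1 (phospholemman) was enriched by 1.94 ± 0.13 and Fxyd6 higher by 0.61 ± 0.08, but Fxyd7, a neuronal member, was depleted: it had 5.06, 6.08, 7.65 and 6.34 CPM in the IP libraries, against 12.7, 13.1, 14.5 and 14.1 CPM in the input libraries, a log2 ratio of -1.13 ± 0.12.

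Receptors through which astrocytes sense transmitters and peptides went both ways, more of them higher in IP. In the calcium and G protein-coupled receptor list 18 of 29 genes were higher, 14 of them enriched, and 6 were lower, with a median log2 ratio of 0.83, against 35.9% higher and 38.4% lower over all genes. With the deposited totals 17 were higher and 11 lower. The endothelin receptor Ednrb (2.37 ± 0.1), the orphan receptor Gpr37l1 (2.31 ± 0.09), the sphingosine-1-phosphate receptor S1pr1 (2.21 ± 0.08), the PACAP receptor Adcyap1r1 (2.02 ± 0.09), the neurotensin receptor Ntsr2 (1.82 ± 0.1) and the phospholipase Plcd4 (2.3 ± 0.11) were enriched. S1pr1, for example, had 675, 594, 762 and 618 CPM in the IP libraries, against 137, 142, 142 and 148 CPM in the input libraries. On the depleted side stood the inositol trisphosphate receptor Itpr3 (-2.34 ± 0.17) and the UDP-glucose receptor P2ry14 (-2.98 ± 0.25). Microglial markers, given further on, were depleted beside both genes; their part in these ratios was not tested.

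Receivers of the Hedgehog signal were enriched. Hedgehog ligands bind Ptch1, which frees Smo to act on the Gli factors, with Boc, Cdon and Gas1 as co-receptors and Hhip as an inhibitor that binds the ligand. Of 12 genes, 10 were higher in IP, 7 of them enriched, and 1 was lower (median log2 ratio 1.59), against 35.9% of all genes higher. With the deposited totals 7 were higher, 1 lower and 4 not called (median 1.3). Hhip had 178, 160, 173 and 158 CPM in the IP libraries, against 36.1, 40.2, 35.3 and 45.6 CPM in the input libraries, a log2 ratio of 2.1 ± 0.08. Gli3 (2.4 ± 0.15), Boc (2.07 ± 0.12), Gas1 (1.94 ± 0.15), Smo (1.74 ± 0.12) and Ptch1 (1.44 ± 0.1) were likewise enriched.

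Notch1, Notch2 and Notch3 were enriched, and other members of the pathway went either way. Of 18 Notch pathway genes, 10 were higher in IP, 7 enriched, and 5 lower, 2 depleted (median log2 ratio 0.53). Over all genes 35.9% were higher and 38.4% lower. Notch1 had 218, 220, 325 and 211 CPM in the IP libraries, against 51.7, 39, 40.2 and 55 CPM in the input libraries, a log2 ratio of 2.38 ± 0.15, with IP replicate 3 the highest. Notch3 (2.44 ± 0.14), Notch2 (1.93 ± 0.13) and the noncanonical ligand Dner (1.68 ± 0.06) were also enriched. The 3 Fringe enzymes, which glycosylate Notch, differed from each other: Lfng was enriched (1.34 ± 0.09), Rfng lower (-0.77 ± 0.1) and Mfng depleted (-3.01 ± 0.17), at 0.651 to 0.949 CPM in IP and 5.45 to 7.35 CPM in input. The ligand Jag2 was lower (-0.44 ± 0.09).

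In the Hippo pathway 8 of 12 genes were higher in IP, 6 enriched, and 2 were lower (median log2 ratio 0.82); with the deposited totals 7 were higher and 4 lower. Beside Tead1, the coactivators Wwtr1 (TAZ, 1.73 ± 0.07) and Yap1 (1.6 ± 0.1), the factor Tead3 (1.56 ± 0.21) and the inhibitory kinases Lats2 (1.14 ± 0.09) and Lats1 (1.04 ± 0.08) were enriched. The upstream kinase Stk3 (-0.35 ± 0.07) and its scaffold Sav1 (-0.24 ± 0.1, adjusted p 0.0483, limma) were lower, at 14.7 to 19.9 CPM in IP and 18.8 to 21.6 CPM in input for Sav1, where the groups overlap. Of 21 BMP pathway genes, 13 were higher, 8 enriched, and 5 lower, 2 depleted (median log2 ratio 0.55). For both pathways the shares of all genes were 35.9% higher and 38.4% lower. The type I receptors Bmpr1b (2.12 ± 0.08) and Bmpr1a (1.18 ± 0.06), the effector Smad5 (1.05 ± 0.07), the ligand Bmp7 (1.15 ± 0.09) and the target genes Id2 (1.57 ± 0.08) and Id4 (1.03 ± 0.07) were enriched. The endothelial type I receptor Acvrl1 (-1.41 ± 0.2) and the secreted antagonist Chrd (-1.23 ± 0.18) were depleted; Chrd shares exon bases with Thpo on the other strand, and the sources used here do not state whether reads were counted by strand. The type II receptor Acvr2a (-0.58 ± 0.08) and the ligand Bmp4 (-0.96 ± 0.3) were lower.

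Fatty acid oxidation was the metabolic list with no member lower in IP. All 18 genes were higher and 15 were enriched, with log2 ratios of 0.75 to 2.28 and a median of 1.33. Cpt1a, which passes long-chain fatty acids into mitochondria, had 181, 177, 232 and 161 CPM in the IP libraries, against 41.4, 35.4, 35.1 and 41.8 CPM in the input libraries, a log2 ratio of 2.28 ± 0.11. The lipid-sensing receptor Ppara (2.21 ± 0.12), the acyl-CoA dehydrogenases Acadl (2.03 ± 0.09) and Acadvl (1.38 ± 0.07) and the reductase Decr1 (1.59 ± 0.08) were enriched. Summed over the list, levels were 1730 to 2190 CPM in IP and 714 to 761 CPM in input, with no overlap.

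Cholesterol synthesis and transport followed the same direction, with 25 of 28 genes higher, 11 enriched, and 1 lower (median log2 ratio 0.85). Over all genes 35.9% were higher. With the deposited totals 19 of this list were higher, 1 lower and 8 not called (median 0.57). Apoe, the main lipid carrier made by astrocytes, had 6230, 5710, 8800 and 6010 CPM in the IP libraries, against 1560, 1560, 1430 and 2350 CPM in the input libraries, a log2 ratio of 1.96 ± 0.18. Hmgcs1, an early enzyme of the mevalonate pathway, had 439, 452, 295 and 341 CPM in the IP libraries, against 138, 135, 134 and 107 CPM in the input libraries, a log2 ratio of 1.56 ± 0.14, with IP replicate 3 the lowest of its group. Dhcr7 (1.18 ± 0.1), which makes cholesterol in its last step, the regulator Srebf2 (1.14 ± 0.08) and the lipoprotein receptor Lrp1 (1.17 ± 0.1) were enriched, and Sc5d was higher (0.93 ± 0.08). The 1 lower gene was Cyp46a1, the neuronal enzyme that hydroxylates cholesterol for export from the brain, with 101, 87.2, 76 and 97.4 CPM in the IP libraries, against 156, 159, 170 and 153 CPM in the input libraries. The log2 ratio of IP over input was -0.83 ± 0.09 (adjusted p 5.93e-06, limma).

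Glucose and respiratory genes did not move as a block. Of 28 genes of glucose, glycogen and lactate metabolism 18 were higher, 8 enriched, and 4 lower, 3 depleted (median log2 ratio 0.36), against 35.9% higher and 38.4% lower over all genes. With the deposited totals 11 of this list were higher and 9 lower (median 0.08). The enriched ones included glycogen enzymes of astrocytes: glycogen phosphorylases Pygm (2.36 ± 0.1) and Pygb (2.02 ± 0.1), and the glycogen-targeting phosphatase subunit Ppp1r3c (1.77 ± 0.07). Aldoc, the brain aldolase, had 2710, 2460, 2790 and 2310 CPM in the IP libraries, against 531, 602, 597 and 585 CPM in the input libraries, a log2 ratio of 2.15 ± 0.09. The hexokinases went in opposite directions, with a log2 ratio of 1.05 ± 0.06 for Hk1 and -2.01 ± 0.23 for Hk2, the second at 3.88 to 7.14 CPM in IP and 14.8 to 29.3 CPM in input. The lactate transporter Slc16a3 was depleted (-1.07 ± 0.13), and the value of Gapdh (-1.05 ± 0.13), at 3.09 to 4.34 CPM in IP and 6.57 to 7.89 CPM in input, is uncertain because near-identical copies can take its reads and its exons overlap Iffo1 on the other strand. Among 28 nuclear genes of oxidative phosphorylation, 11 were higher and none enriched, and 16 were lower with 1 depleted (median log2 ratio -0.23). Among the named subunits, Sdha (0.68 ± 0.06), Uqcrc1 (0.56 ± 0.06) and Ndufs1 (0.53 ± 0.06) were higher, and Cox8a (-0.66 ± 0.06), Cox7a2 (-0.82 ± 0.08), Ndufa4 (-0.83 ± 0.08) and Ndufa1 (-1.1 ± 0.06) were lower. The list had 3 higher and 17 lower with the deposited totals.

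**Figure D3:**
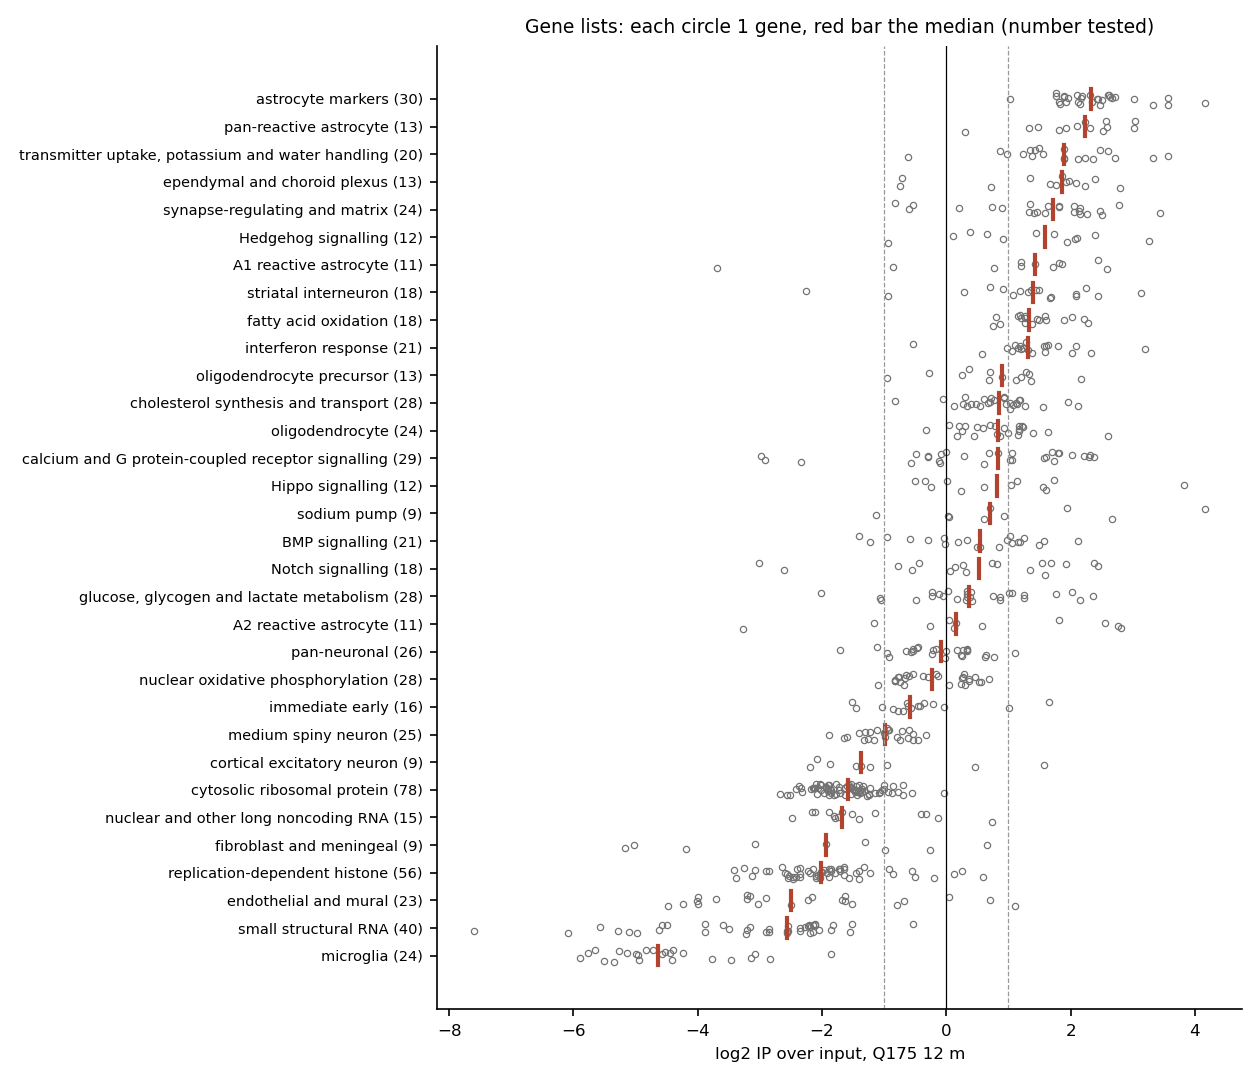
Log2 ratio of IP over input in Q175 striatum at 12 months for each tested member of the gene lists (circles), with the list's median as a red bar, the number tested in brackets and dashed lines at log2 ratios of -1 and 1. Fatty acid oxidation genes lie between 0.75 and 2.28, astrocyte markers between 1.03 and 4.17 and microglial markers between -5.9 and -1.85.

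Genes that rise in reactive astrocytes were enriched, with wide spread between replicates. Of 13 pan-reactive genes 12 were higher in IP and all of those were enriched (median log2 ratio 2.23). In WT mice at 12 months the median was 2.36, and no member was called as differing in its ratio between the genotypes. Gfap, the intermediate filament whose promoter is used to target astrocytes, had 3130, 4310, 6020 and 3590 CPM in the IP libraries, against 566, 467, 379 and 682 CPM in the input libraries, a log2 ratio of 3.02 ± 0.22. Serpina3n, a secreted protease inhibitor, had 325, 663, 718 and 362 CPM in the IP libraries, against 119, 60.9, 55.5 and 112 CPM in the input libraries, a log2 ratio of 2.57 ± 0.31. Here IP replicates 2 and 3 were high, and so were input replicates 1 and 4, but the groups did not overlap. Lcn2 had 10.5, 47, 43.7 and 7.61 CPM in the IP libraries, against 5.53, 0.814, 1.5 and 5.2 CPM in the input libraries. Its log2 ratio was 3.04 ± 0.72 (adjusted p 0.00258, limma), and it was 2.68 without IP replicate 3 (adjusted p 0.0074). Vim (2.31 ± 0.24), Cd44 (2.23 ± 0.24), the oncostatin M receptor Osmr (2.59 ± 0.23) and S1pr3 (2.11 ± 0.27) were enriched with the same high replicates.

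The A1 list, genes induced by inflammatory signals in astrocytes, had 9 of 11 higher in IP, 8 enriched, and 2 lower (median log2 ratio 1.42). In WT mice at 12 months the median was 1.32 for this list and 0.6 for the A2 list given below. No member of either list was called as differing in its ratio between the genotypes. The complement inhibitor Serping1 had 111, 242, 180 and 115 CPM in the IP libraries, against 44.8, 18.6, 19.8 and 25.5 CPM in the input libraries, a log2 ratio of 2.59 ± 0.3. H2-D1, a major histocompatibility class I chain, had 999, 1460, 992 and 974 CPM in the IP libraries, against 599, 352, 346 and 379 CPM in the input libraries, a log2 ratio of 1.42 ± 0.18, with IP replicate 2 and input replicate 1 the highest of their groups. Ggta1 (1.81 ± 0.19) and Amigo2 (1.21 ± 0.07) were enriched. Srgn, a proteoglycan of myeloid granules, was depleted (-3.69 ± 0.25) and the glucocorticoid-induced chaperone Fkbp5 lower (-0.86 ± 0.1). In the A2 list, genes induced after ischaemia, 5 of 11 were higher (35.9% of all genes), 4 of them enriched, and 2 were depleted (14.9% of all genes). Its median of 0.16 turned to -0.12 with the deposited totals, so the list has no fixed direction. The enriched members were Cd109 (2.81 ± 0.3), Tgm1 (2.77 ± 0.44), Ptx3 (2.56 ± 0.4) and Emp1 (1.81 ± 0.2), and the depleted ones were the prostaglandin synthase Ptgs2 (-1.17 ± 0.22) and the myeloid receptor Cd14 (-3.27 ± 0.26).

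Interferon-induced genes were enriched in 18 of 21 cases, with 20 higher and 1 lower (median log2 ratio 1.32). Over all genes 13.3% were enriched and 35.9% higher. In WT mice at 12 months 18 of 21 were enriched as well, with the same median of 1.32. No member was called as differing in its ratio between the genotypes. Gbp5, an interferon-induced GTPase, had 255, 507, 366 and 208 CPM in the IP libraries, against 65.9, 25, 27 and 32.1 CPM in the input libraries, a log2 ratio of 3.19 ± 0.32. Ifit3 had 1060, 1080, 938 and 757 CPM in the IP libraries, against 244, 156, 204 and 163 CPM in the input libraries, a log2 ratio of 2.33 ± 0.15, without the high IP replicates 2 and 3 seen for Gbp5 and Serpina3n. Oasl2 (2.09 ± 0.18), the RNA sensor Ddx58 (1.79 ± 0.11), Ifit1 (1.6 ± 0.14), Usp18 (1.38 ± 0.1) and Ifi27 (1.24 ± 0.09) were enriched. The lower member was Irf7, the factor that amplifies the interferon response, with 75.2, 87.6, 67.2 and 62.1 CPM in the IP libraries, against 143, 85.1, 116 and 86.7 CPM in the input libraries. That gave a log2 ratio of -0.54 ± 0.16 (adjusted p 0.0107, limma), the groups overlap, and its exons share bases with Phrf1 on the other strand. The same ratio in WT mice, which had the injection too, was 3.14 ± 0.21 for Gbp5 and 2.26 ± 0.12 for Ifit3.

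Immediate early genes, which neurons and glia switch on within minutes of activity, were mixed. Of 16 genes 2 were higher, both enriched, and 8 lower, 2 depleted (median log2 ratio -0.59), against 35.9% higher and 38.4% lower over all genes. With the deposited totals 1 was higher and 12 lower. Jun had 78.4, 105, 94.8 and 72.4 CPM in the IP libraries, against 34.7, 23.5, 24.9 and 28 CPM in the input libraries, a log2 ratio of 1.66 ± 0.14. Fos had 16.8, 24.3, 19.4 and 31.2 CPM in the IP libraries, against 10.2, 22.2, 5.05 and 13.1 CPM in the input libraries. The log2 ratio was 1.01 ± 0.37 (adjusted p 0.0259, limma), the groups overlap, and the call was lost with the deposited totals (0.73, adjusted p 0.0881) and without input replicate 1 or 3 or IP replicate 2 or 4 (0.0524 to 0.0703). Npas4 (-1.45 ± 0.31), a factor of active neurons, and Klf4 (-1.52 ± 0.2) were depleted; Egr3 (-0.7 ± 0.19), Fosb (-0.78 ± 0.23) and Ier2 (-0.64 ± 0.2) were lower.

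Proteins that astrocytes secrete or display to shape synapses and matrix were higher in 21 of 24 cases, 18 of them enriched, and lower in 3 (median log2 ratio 1.72). Sparcl1 (hevin), which promotes synapse formation, had 4300, 3980, 4690 and 4210 CPM in the IP libraries, against 971, 948, 1030 and 926 CPM in the input libraries, a log2 ratio of 2.15 ± 0.09. The glypicans Gpc6 (2.47 ± 0.08) and Gpc5 (2.27 ± 0.08), the phagocytic receptor Megf10 (2.15 ± 0.09), the secreted Lgi4 (2.05 ± 0.07) and the matrix link protein Hapln1 (1.82 ± 0.08) were enriched. The lower members were the thrombospondins Thbs1 (-0.82 ± 0.22) and Thbs3 (-0.6 ± 0.08) and the synaptic adhesion protein Nlgn1 (-0.54 ± 0.1).

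Oligodendrocyte genes were higher in IP as well, by smaller ratios than astrocyte genes. The oligodendrocyte list had 18 of 24 higher, 9 enriched and none lower (median log2 ratio 0.84); with the deposited totals it had 16 higher and 2 lower, and without IP replicate 3 it had 18 higher and 1 lower. Myrf, the master factor of myelin genes, had 128, 169, 234 and 162 CPM in the IP libraries, against 27.9, 26.3, 22.1 and 37.2 CPM in the input libraries, a log2 ratio of 2.6 ± 0.18. Cnp, a myelin enzyme, had 1040, 1340, 1250 and 1140 CPM in the IP libraries, against 499, 558, 501 and 560 CPM in the input libraries, a log2 ratio of 1.17 ± 0.09, and shares exon bases with Dnajc7 on the other strand. Sox10 (1.17 ± 0.08), Olig2 (1.16 ± 0.09) and Fa2h (1.4 ± 0.09), which makes hydroxylated myelin lipids, were enriched and Olig1 was higher (0.99 ± 0.07). Of 13 precursor markers 10 were higher, 6 enriched, and 1 lower, Bmp4. Sox6 (2.17 ± 0.09), Cspg4 (1.28 ± 0.11) and Pdgfra (1.21 ± 0.15) were enriched, and Pdgfra had 169, 153, 92.2 and 128 CPM in the IP libraries, against 56.2, 56.2, 58.5 and 57.5 CPM in the input libraries, with IP replicate 3 the lowest.

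Ependymal genes were enriched, while genes used by the choroid plexus went both ways. Of 13 genes 11 were higher, 10 enriched, and 2 lower (median log2 ratio 1.86). Foxj1, the factor that drives motile cilia, had 75.2, 86.5, 120 and 87.9 CPM in the IP libraries, against 18.8, 19.2, 16.2 and 24.1 CPM in the input libraries, a log2 ratio of 2.23 ± 0.15. The cilia genes Hydin (2.8 ± 0.25), Dnah5 (2.39 ± 0.15) and Tekt1 (2.09 ± 0.17) were enriched. Of genes used by the choroid plexus, the homeobox factor Otx2 (1.92) and the folate receptor Folr1 (1.67) were enriched. Both lay outside the rule for named genes and are given without a standard error or CPM. Clic6 (-0.75 ± 0.13) and Kl (-0.72 ± 0.29, adjusted p 0.0441, limma) were lower, Kl with overlapping groups and a call that was lost without input replicate 1 or 3 or IP replicate 1 or 3 (adjusted p 0.104 to 0.12, limma). Summed, the list was at 214, 219, 286 and 209 CPM in IP and 73.2, 64.5, 68.6 and 76.3 CPM in input, and IP replicate 3, high in astrocyte markers, was high here too.

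Neuronal genes divided by cell class. All 25 medium spiny neuron markers were lower in IP and 11 were depleted, with log2 ratios of -1.88 to -0.33 and a median of -0.98, against 38.4% of all genes lower. Adora2a, the adenosine receptor of indirect-pathway neurons, had 57.8, 41.4, 35 and 57.1 CPM in the IP libraries, against 130, 160, 158 and 124 CPM in the input libraries, a log2 ratio of -1.6 ± 0.16. Tac1, the substance P precursor of direct-pathway neurons, had 109, 82.9, 55.1 and 95.9 CPM in the IP libraries, against 241, 261, 274 and 264 CPM in the input libraries, a log2 ratio of -1.64 ± 0.17. IP replicate 3 was the lowest in both, and without it the list's median was -0.81 with 24 genes lower. Arpp21 (-1.88 ± 0.12), Rasd2 (-1.33 ± 0.11), Ptpn5 (-1.3 ± 0.13) and the sodium channel subunit Scn4b (-1.17 ± 0.14) were also depleted; Arpp21 shares exon bases with 2900079G21Rik. Their markers were still detected in the IP, where they summed to 3830 to 6330 CPM.

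Interneuron markers moved the other way. Of 18 genes 14 were higher in IP, 13 enriched, and 2 were lower, 1 of them depleted (median log2 ratio 1.4). Chat, which makes acetylcholine, had 140, 125, 136 and 116 CPM in the IP libraries, against 29.2, 26.9, 27.5 and 25 CPM in the input libraries, a log2 ratio of 2.25 ± 0.07. The choline transporter Slc5a7 (2.09 ± 0.08), the vesicular glutamate transporter Slc17a8 (2.44 ± 0.11) and acetylcholinesterase Ache (1.19 ± 0.06), all of cholinergic interneurons, and the factor Lhx6 (1.45 ± 0.07) were enriched. The lower members were Pvalb, which marks fast-spiking interneurons (-0.93 ± 0.16), and the peptide Cck (-2.25 ± 0.25). The list summed to 1450, 1220, 1420 and 1250 CPM in IP and 391, 384, 415 and 395 CPM in input, 4 IP libraries above 4 input libraries, the opposite order to the medium spiny neuron markers in the same libraries. In the 16-library fit of both genotypes no interneuron or medium spiny neuron marker was called as differing in its IP over input ratio. The test was of ratios and not of levels. Scaled within each genotype, the medium spiny neuron markers summed to 9480 to 10900 CPM in Q175 input and 17300 to 19000 CPM in WT input. In IP they summed to 3830 to 6330 CPM in Q175 and 9370 to 13400 CPM in WT mice.

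Pan-neuronal genes showed both directions, with 8 of 26 higher, 1 enriched, and 10 lower, 2 depleted (median log2 ratio -0.09). The shares higher and lower lie near those of all genes, 35.9% and 38.4%. With the deposited totals 3 were higher and 15 lower. Synapsin Syn1 was enriched (1.11 ± 0.15), though its exons share bases with Araf, and tubulin Tubb3 (0.64 ± 0.13) and Elavl4 (0.77 ± 0.1) were higher. Neurogranin Nrgn, a small dendritic protein, had 73.9, 57.7, 51.3 and 64 CPM in the IP libraries, against 194, 189, 221 and 200 CPM in the input libraries, a log2 ratio of -1.71 ± 0.1. The postsynaptic scaffold Dlg4 was depleted (-1.11 ± 0.07), and Rbfox3 (-0.96 ± 0.12), Gap43 (-0.92 ± 0.1) and Thy1 (-0.54 ± 0.07) were lower. Of 9 cortical excitatory markers 1 was enriched and 6 were depleted (median log2 ratio -1.38). Slc17a7, the vesicular glutamate transporter of cortical neurons, had 3.67, 2.17, 8.02 and 1.9 CPM in the IP libraries, against 8.71, 10.3, 10.7 and 55.9 CPM in the input libraries. Input replicate 4 was far above the other 3 input libraries, and the log2 ratio was -2.2 ± 0.59. Neurod2 (-2.08 ± 0.22) and Lamp5 (-1.38 ± 0.16) were depleted and Fezf2 enriched (1.58 ± 0.27).

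Microglial genes were depleted in 24 of 24 cases, with log2 ratios of -5.9 to -1.85 and a median of -4.64, against 14.9% of all genes depleted. Tyrobp, an adaptor of microglial receptors (chr7:30413760-30417585, plus strand), had 0.968, 1.76, 0.817 and 0.969 CPM in the IP libraries, against 71.4, 58.8, 49 and 86.4 CPM in the input libraries. The log2 ratio of IP over input was -5.9 ± 0.24 (adjusted p 7.7e-09, limma), a 59.9-fold difference. The lysosomal protease Ctss had 11.2, 23.3, 8.89 and 10.4 CPM in the IP libraries, against 850, 571, 471 and 668 CPM in the input libraries, a log2 ratio of -5.65 ± 0.27. The complement chains C1qb (-5.5 ± 0.22), C1qa (-5.35 ± 0.24) and C1qc (-5.27 ± 0.22), whose promoter is printed above, were depleted together, with IP replicate 2 the highest of the IP libraries for all 3. Lyz2 (-5.76 ± 0.36), the receptors Gpr34 (-5.14 ± 0.22), Cx3cr1 (-4.72 ± 0.16) and Csf1r (-4.4 ± 0.15) and the lymphocyte antigen Ly86 (-4.99 ± 0.26) were depleted; Csf1r shares exon bases with Hmgxb3 on the other strand. The lectin Siglech was depleted as well (-3.46 ± 0.09). Cst7 (-5.35 ± 0.32), an inhibitor of lysosomal proteases, the chemokine Ccl12 (-5.17 ± 0.38) and Ly6c2 (-5.03 ± 0.34), not on the list, were among the 15 lowest genes.

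Vessel and meningeal genes were depleted too. Of 23 endothelial and mural genes 20 were lower, 18 depleted, and 2 higher, 1 enriched (median log2 ratio -2.50). Cldn5, the tight junction protein of brain endothelium, had 1.43, 1.74, 1.71 and 1.25 CPM in the IP libraries, against 21.6, 26.9, 25.4 and 24.9 CPM in the input libraries, a log2 ratio of -4.01 ± 0.13. Pecam1 (-3.71 ± 0.14), the efflux pump Abcb1a (-3.03 ± 0.13), the VEGF receptor Flt1 (-2.9 ± 0.09) and the pericyte genes Vtn (-2.5 ± 0.07) and Rgs5 (-2.16 ± 0.08) were depleted. The 2 higher genes were Pdgfrb (1.1 ± 0.09) and Tagln (0.7 ± 0.26, adjusted p 0.0331, limma), the second at 4.99 to 12.2 CPM in IP and 3.35 to 6.41 CPM in input, where the groups overlap and exon bases are shared with Pcsk7. Of 9 fibroblast and meningeal genes 7 were lower, 6 depleted, and 1 higher (median log2 ratio -1.94). The matrix protein Dcn had 0.343, 0.771, 0.422 and 0.505 CPM in the IP libraries, against 17.7, 16.4, 14.3 and 15.8 CPM in the input libraries, a log2 ratio of -5.02 ± 0.22. Col3a1 (-3.07 ± 0.19), the GABA transporter Slc6a13 of the leptomeninges (-4.19 ± 0.26) and Igf2 (-1.3 ± 0.25) were depleted and Ptgds, made by meninges and oligodendrocytes, was higher (0.66 ± 0.12). Among the blood genes only Alas2, of haem synthesis in red cells, was tested, at 0.0264 to 0.101 CPM in IP and 1.62 to 3.39 CPM in input (-4.84 ± 0.44); it shares exon bases with Apex2.

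Small structural RNAs, which are not translated, were left behind. Rmrp, the RNA of the RNase MRP particle that cuts precursor ribosomal RNA, was the most depleted gene. It is a single exon of 271 bases, printed here because its depletion led all genes; it comes from the GENCODE M21 transcript on GRCm38 (mm10).
Rmrp, chr4:43492788-43493058, minus strand: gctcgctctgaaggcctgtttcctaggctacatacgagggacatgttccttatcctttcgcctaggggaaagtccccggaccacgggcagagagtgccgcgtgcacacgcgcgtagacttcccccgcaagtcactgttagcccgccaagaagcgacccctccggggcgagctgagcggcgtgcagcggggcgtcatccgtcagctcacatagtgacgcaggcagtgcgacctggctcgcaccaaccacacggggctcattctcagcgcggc
Rmrp had 14.1, 22.4, 9.84 and 12.1 CPM in the IP libraries, against 2360, 2920, 2150 and 3590 CPM in the input libraries. Its log2 ratio was -7.6 ± 0.23 (adjusted p 2.71e-09, limma), a 194-fold difference, and -7.42 without IP replicate 3. Rpph1, the RNA of RNase P, which trims precursor transfer RNAs, had 190, 213, 167 and 159 CPM in the IP libraries, against 5400, 6020, 5630 and 8020 CPM in the input libraries, a log2 ratio of -5.1 ± 0.14. All 40 small structural RNAs tested were lower and 39 were depleted (median log2 ratio -2.57). With a filter of at least 1 CPM in every library of one RNA type, which keeps only the more abundant of them, the median was -3.9. Snora74a (-6.08 ± 0.25), a small nucleolar RNA, the Cajal body RNAs Scarna6 (-5.28 ± 0.27) and Scarna10 (-4.97 ± 0.29), and the telomerase RNA Terc (-4.58 ± 0.24) stood among the lowest, Scarna10 inside exons of Ncapd2 on the same strand. Summed, the list held 308, 330, 266 and 278 CPM in IP and 7980, 9230, 8030 and 11900 CPM in input. Levels of these short RNAs in polyA libraries are not comparable with those of messenger RNAs.

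Long noncoding RNAs were depleted in 11 of 15 cases, with 12 lower and 1 higher (median log2 ratio -1.67). Meg3, a neuronal nuclear RNA, had 236, 192, 239 and 209 CPM in the IP libraries, against 871, 791, 797 and 760 CPM in the input libraries, a log2 ratio of -1.88 ± 0.08. Rian (-2.48 ± 0.07), Miat (-2.16 ± 0.1), the snoRNA hosts Gas5 (-1.8 ± 0.07), Snhg1 (-1.79 ± 0.11) and Snhg11 (-1.74 ± 0.08) were depleted; Rian overlaps AF357425 and DQ267100 on its own strand. The higher one was Pantr1 (0.74 ± 0.1), at 38.8 to 50.4 CPM in IP and 23.3 to 30 CPM in input. By GENCODE class, 32 of 33 snoRNAs (97%) were depleted, and so were 46.7% of 169 lincRNAs, 47.6% of 147 antisense genes and 75% of 68 genes annotated as miRNAs, against 12.9% of 14085 protein-coding genes. Not every class did so: 26.7% of 30 bidirectional promoter RNAs and 12.9% of 31 processed pseudogenes were depleted, with 16.1% of the latter enriched. Among the lincRNAs 7.69% were enriched. The overlap of many of these with coding genes cannot be resolved without knowing the strand of counting.

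Some translated messages were depleted too, among them those of ribosomal proteins and histones. Of 78 cytosolic ribosomal protein genes 77 were lower and 70 depleted (median log2 ratio -1.58), and none was higher. Rplp1, of the ribosomal stalk, had 57.7, 63.2, 66.8 and 58.5 CPM in the IP libraries, against 373, 388, 400 and 410 CPM in the input libraries, a log2 ratio of -2.68 ± 0.06. Rps21 (-2.51 ± 0.1), Rpl32 (-2.37 ± 0.08), Rpl13a (-2.09 ± 0.08), Rps15 (-1.91 ± 0.06) and Rps2 (-1.63 ± 0.06) were depleted; many near-identical copies of these genes exist and Rpl32 shares exon bases with Snora7a and Cand2, so single values are uncertain. Of 56 histone genes 53 were lower, 48 depleted, and 2 higher (median log2 ratio -2.01). Hist1h4c had 22, 21.8, 18.6 and 22.3 CPM in the IP libraries, against 77.8, 76, 88.1 and 79.2 CPM in the input libraries, a log2 ratio of -1.92 ± 0.08, and Hist4h4 (-2.56 ± 0.12) and Hist1h4f (-2.35 ± 0.09) were lower still. The higher ones were Hist1h2bc (0.59 ± 0.1) and Hist1h1c (0.26 ± 0.08), the second with a sign that turned to -0.02 with the deposited totals. Histone copies are near-identical within a class, and the replication-dependent ones lack a polyA tail as background.

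Short messages were depleted more often than long ones. With genes ordered by their longest coding transcript and cut into 5 equal groups, the shortest group (216 to 1847 bases) had a median log2 ratio of -0.3, with 22.3% depleted and 9.69% enriched. The next 3 groups had medians of -0.07, 0.01 and 0.08, with 15.7%, 11.4% and 10% depleted. The longest group (5195 to 123179 bases) had a median of 0.29, with 5.11% depleted and 18.7% enriched. Of the genes tested, 95.1% were matched to 1 gene of the annotation, and genes are not independent, so this is a description with no p.

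The disease gene and the gene of the tag were both higher in IP. Htt (chr5:34761740-34912534, plus strand) had 318, 286, 316 and 298 CPM in the IP libraries, against 173, 169, 183 and 208 CPM in the input libraries. That gave a log2 ratio of 0.74 ± 0.08 (adjusted p 4.96e-06, limma), with no overlap, and 0.83 ± 0.08 in WT mice; reads of the expanded and the normal allele are not separated here. Rpl22, the ribosomal protein of the tag per the published study (chr4:152325742-152334071, plus strand), had 394, 322, 790 and 331 CPM in the IP libraries, against 160, 159, 160 and 211 CPM in the input libraries. IP replicate 3 lay far above the other 3 IP libraries, and all 4 lay above the input libraries. The log2 ratio was 1.32 ± 0.24 (adjusted p 0.000462, limma), and 1.03 without IP replicate 3. The other ribosomal proteins were nearly all lower in IP, as given above. Its paralog Rpl22l1 (chr3:28805436-28807424, plus strand) had 4.8, 4.56, 4.46 and 4.67 CPM in the IP libraries, against 26.7, 26.1, 25.4 and 34.3 CPM in the input libraries and was depleted like them, with a log2 ratio of -2.59 ± 0.1. The ratio of Rpl22 was 1.88 ± 0.15 in WT mice at 12 months, 2.36 in Q175 mice at 2 months and 1.9 at 6 months. Its ratio in Q175 mice was lower at 12 than at 2 months by the test of the difference (-1.05 ± 0.33, adjusted p 0.0482, limma), and the difference from WT mice was not called (-0.56 ± 0.32, adjusted p 0.883, limma). Reads of a viral and of the endogenous copy cannot be told apart in these files.

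The Q175 ratio was next set against that of WT mice of the same age, to see which ratios differed with genotype. In WT mice 11974 of 15560 genes were called (77%), 2000 enriched (12.9%) and 2218 depleted (14.3%). Across 15504 genes the ratios of the 2 genotypes had a Pearson's r of 0.976 and a Spearman's rho of 0.973, a correlation across genes and not across mice; all 16 libraries carry the same run label. The astrocyte markers had a median log2 ratio of 2.33 in Q175 and 2.08 in WT mice, the oligodendrocyte markers 0.84 and 0.6, the medium spiny neuron markers -0.98 and -0.71, the interneuron markers 1.4 and 1.19 and the microglial markers -4.64 and -4.82. No member of any of these 5 lists was called when the difference itself was tested.

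The test of that difference, which reuses the 8 Q175 libraries described above, called 19 of 15646 genes (0.121%), 14 with a higher ratio in Q175 mice (0.0895%) and 5 with a lower one (0.032%). At an unadjusted p below 0.05 there were 924. Values in this comparison are CPM scaled over its 16 libraries. The largest increase was that of Ddit4l, an inhibitor of mTORC1 signalling (chr3:137621612-137628333, plus strand). It had 28.6, 26.7, 43 and 27.9 CPM in Q175 IP and 5.93, 6.81, 6.16 and 8.35 CPM in Q175 input, against 42.2, 36, 39 and 31.5 CPM in WT IP and 21.2, 25.5, 21.6 and 23.6 CPM in WT input. The log2 ratio was 2.19 in Q175 and 0.69 in WT mice, a difference of 1.51 ± 0.2 (adjusted p 0.00486, limma). The level in input was lower in Q175 libraries than in every WT library, whereas the IP libraries overlapped.

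Several of the other genes were likewise lower in Q175 input than in WT input, while their IP was lowered by less or not at all. Bmp7, a BMP ligand, had 20.4, 21.3, 20.1 and 22.9 CPM in Q175 IP and 10.5, 8.51, 10.2 and 8.68 CPM in Q175 input, against 13.3, 17.3, 13.3 and 18.9 CPM in WT IP and 16.8, 13.5, 15.8 and 13.1 CPM in WT input, so that Q175 was above WT in IP and below it in input. The difference of log2 ratios was 1.09 ± 0.17 (adjusted p 0.0115, limma). Id4, an inhibitor of helix-loop-helix factors induced by BMP, had 224, 195, 198 and 214 CPM in Q175 IP and 95.9, 112, 96 and 98.8 CPM in Q175 input, against 223, 266, 240 and 250 CPM in WT IP and 171, 174, 204 and 184 CPM in WT input. Its difference was 0.62 ± 0.1 (adjusted p 0.0168, limma); Id4 shares exon bases with A330033J07Rik. Hbegf, a ligand of the EGF receptor, differed by 0.69 ± 0.11, with 14.4 to 17 CPM in Q175 input and 26.3 to 31.4 CPM in WT input. Il17rc, a subunit of the interleukin-17 receptor (0.84 ± 0.14), and Rnf144a, an E3 ubiquitin ligase (0.55 ± 0.08), had the same order. Trank1 was depleted in both genotypes, with 359 to 410 CPM in Q175 input and 713 to 811 CPM in WT input, and its ratio differed by 0.67 ± 0.12. Bmp7 and Id4 were the called members of the BMP list, 2 of 21, against 0.121% of all genes. The other 19 were not called, and the median difference over the list was 0.08.

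Abhd1 had higher values in Q175 mice in both RNA types: it had 9.41, 7.47, 8.89 and 8.57 CPM in Q175 IP and 7.34, 6.35, 6.51 and 5.57 CPM in Q175 input, against 2.27, 1.85, 2.03 and 1.46 CPM in WT IP and 4.53, 2.79, 3.15 and 3.12 CPM in WT input. The difference was 1.24 ± 0.22 (adjusted p 0.0295, limma), and 649 of its exon bases are shared with Preb on the other strand. Lpcat2, an enzyme of membrane phospholipids found in microglia, had 9.47 to 11.5 CPM in Q175 IP and 31.4 to 44.8 CPM in Q175 input, against 5.28 to 5.87 CPM in WT IP and 30.4 to 40.3 CPM in WT input. Its difference of 0.8 ± 0.15 (adjusted p 0.0384, limma) lay in the IP. Ankrd35 differed by 0.79 ± 0.14 (adjusted p 0.0276, limma). The other genes called higher were Cpne9 (1.09 ± 0.2), Rgs12 (0.51 ± 0.09), Sh3bgrl2 (0.47 ± 0.08) and Stag1 (0.38 ± 0.07). Several of these calls lay close to the threshold: of the 16 fits that leave out 1 library, 14 ended the call of Lpcat2, 12 each those of Abhd1 and Ankrd35, and 11 that of Trank1. The differences in those 16 fits were 0.72 to 0.89 for Lpcat2, 1.1 to 1.33 for Abhd1, 0.72 to 0.87 for Ankrd35 and 0.61 to 0.73 for Trank1. Id4 lost its call without Q175 IP replicate 1 or WT input replicate 3, and the total was 10 genes without Q175 IP replicate 1.

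Of the 5 genes with a lower ratio in Q175 mice, Sfmbt2, a Polycomb group protein, had 13.5, 13, 13.4 and 14.3 CPM in Q175 IP and 15.4, 17.4, 15.6 and 16.8 CPM in Q175 input, against 8.58, 5.68, 6.75 and 5.9 CPM in WT IP and 3.77, 3.82, 3.74 and 3.41 CPM in WT input. Both RNA types were higher in Q175, the input by more, and the log2 ratio was -0.27 in Q175 and 0.85 in WT mice, a difference of -1.11 ± 0.15 (adjusted p 0.00514, limma). Rprm, a p53-induced brake on the cell cycle, had 14.2 to 16.2 CPM in Q175 input, against 4.85 to 7.27 CPM in WT input, while IP was at 15.1 to 16.1 CPM in Q175 and 11 to 16.9 CPM in WT mice; its difference was -1.11 ± 0.18 (adjusted p 0.0142, limma). The remaining 3 were outside the rule for named genes and are named after their values were seen. Klk8, a secreted protease (-1.46 ± 0.22), and Emx2os, the antisense partner of Emx2 (-1.2 ± 0.17), had low levels. C130021I20Rik had 1.22, 0.817, 0.57 and 0.946 CPM in Q175 IP and 3.45, 4.65, 4.68 and 2.41 CPM in Q175 input, against 0.0935, 0.272, 0.167 and 0.12 CPM in WT IP and 0.0251, 0.0258, 0.0331 and 0.0226 CPM in WT input. The 4 WT input values stand for 1 read each, so its fitted difference of -4.37 ± 0.5 depends on the prior count and gives no size.

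**Figure D4:**
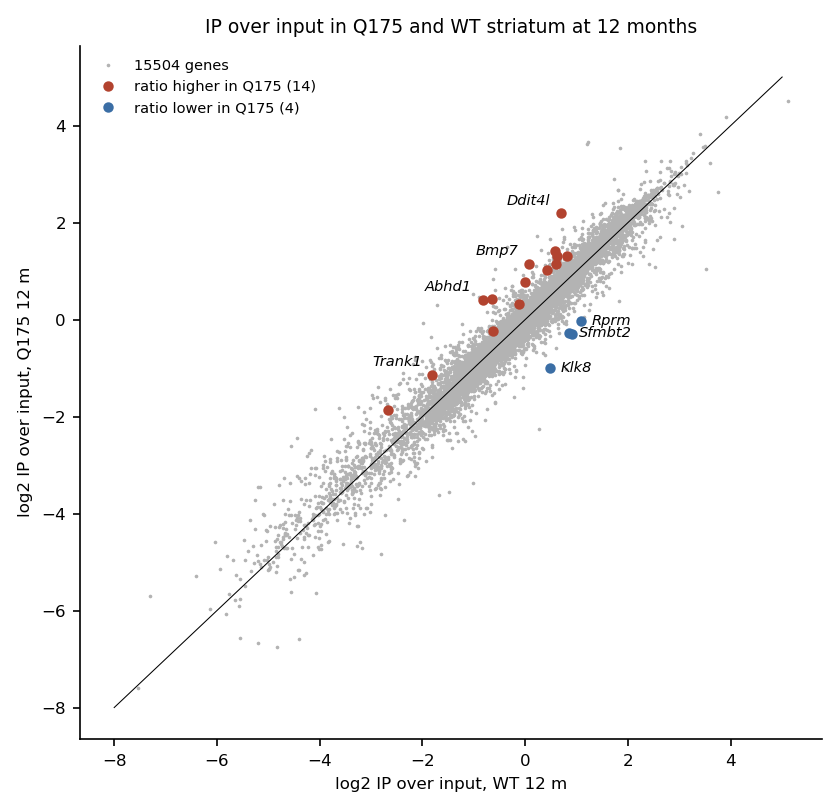
Log2 ratio of IP over input at 12 months in Q175 mice (y axis) and in WT mice (x axis), each fitted from 4 IP and 4 input libraries; grey points are 15504 genes, the line marks equal ratios, and coloured points are 18 of the 19 genes whose ratio differed with genotype. C130021I20Rik is not drawn because it was not tested in WT mice alone. Ddit4l stands at 2.19 in Q175 and 0.69 in WT mice, and Sfmbt2 at -0.27 in Q175 and 0.85 in WT mice.

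Age was compared within Q175 mice, with the same 12-month libraries on top. CPM in the comparison of 12 with 2 months are scaled over its 16 libraries, so 12-month values differ slightly from those above. At 2 months 12083 of 15404 genes were called (78.4%), with 2430 enriched and 1994 depleted, and at 6 months 11768 of 15570 (75.6%), with 2100 enriched and 2377 depleted. The test of the difference between the 12-month and the 2-month ratio called 1824 of 15635 genes (11.7%), 694 with a higher ratio at 12 months (4.44%) and 1130 with a lower one (7.23%). With the deposited totals 2218 were called, of which 23.2% were higher, against 38% with TMM. Across genes the correlation with the 12-month ratios was 0.942 at 2 months and 0.971 at 6 months. The count fell to 1279 without IP replicate 4 of 12 months and was 3124 without IP replicate 3 of 12 months.

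Many oligodendrocyte markers had a higher ratio at 12 months than at 2 months. Their median log2 ratio was 0.03 at 2 months, 0.67 at 6 months and 0.84 at 12 months, and 20 of 24 had a higher ratio at 12 than at 2 months, against 4.44% of all genes. Astrocyte markers went the other way, with medians of 2.69, 2.57 and 2.33 over the 3 ages and 9 of 30 lower. Fatty acid oxidation genes had medians of 1.75, 1.53 and 1.33, with 7 of 18 lower, and 8 of 28 genes of glucose metabolism, 8 of 28 of cholesterol and 8 of 24 of synapse and matrix were lower, against 7.23% of all genes. Ribosomal proteins had medians of -1.35, -1.46 and -1.58 with 24 of 78 lower, and vessel genes -1.83, -2.11 and -2.5 with 11 of 23 lower and 1 higher. Medium spiny neuron markers had medians of -1.23, -0.96 and -0.98 and none was called. The median of 9 cortical excitatory markers (8 at 6 months) was 0.49, -0.92 and -1.38 over the 3 ages, a larger shift, with no member called. Oligodendrocyte markers thus moved beside a fall of astrocyte markers in the same IP over input ratios; the part of the one in the other was not tested.

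Single genes followed the lists in part. Enpp6, a marker of newly forming oligodendrocytes, had 33.8, 49.8, 40.7 and 36.5 CPM in IP and 18.5, 17.3, 16.6 and 20.8 CPM in input at 12 months, against 11.7, 7.89, 11.6 and 11.3 CPM in IP and 11.6, 12.7, 9.96 and 12.3 CPM in input at 2 months. Its ratio differed by 1.27 ± 0.19 (adjusted p 0.000884, limma), and both RNA types were higher at 12 months, IP by more. The genes Anln (1.16 ± 0.23), Atp10b (1.25 ± 0.22) and Nfe2l3 (1.15 ± 0.2) had the same order. Ddit4l, which differed with genotype, differed with age as well: its input was 5.9 to 8.23 CPM at 12 months and 22.2 to 24.6 CPM at 2 months, and the ratio differed by 1.4 ± 0.18 (adjusted p 0.000358, limma). St8sia2, which adds polysialic acid in immature brain, had 4.16, 4.03, 7.37 and 4.88 CPM in IP and 0.686, 1.79, 1.75 and 1.37 CPM in input at 12 months, against 8.36, 8.79, 9.4 and 8.68 CPM in IP and 7.73, 6.59, 6.35 and 6.92 CPM in input at 2 months, so that it was lower at 12 months in both RNA types, in input by more (1.56 ± 0.34). Abhd11os (1.6 ± 0.37), whose exons overlap Abhd11, Fbln5 (1.37 ± 0.19), an elastic fibre protein, D7Ertd443e (1.13 ± 0.21) and Tagln (1.28 ± 0.34) complete the named genes with a higher ratio.

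Among genes with a lower ratio at 12 months, Pax6, a factor of neural progenitors and some astrocytes, had 18.9, 16.1, 20.9 and 17.9 CPM in IP and 9.98, 11.7, 10.2 and 9.54 CPM in input at 12 months, against 22.9, 24.7, 24.9 and 24.6 CPM in IP and 5.82, 5.55, 4.13 and 4.79 CPM in input at 2 months. Input was higher and IP lower at 12 months, with no overlap in either, and the difference was -1.44 ± 0.15 (adjusted p 8.49e-05, limma). Emx2, a homeobox factor of the developing forebrain, differed by -1.24 ± 0.16; its exons share bases with Emx2os on the other strand. Rmrp had 13.6, 21.4, 9.48 and 11.6 CPM in IP and 2280, 2790, 2050 and 3420 CPM in input at 12 months, against 26, 40.9, 19.3 and 34.2 CPM in IP and 2070, 1310, 2270 and 1890 CPM in input at 2 months, a difference of -1.6 ± 0.35 (adjusted p 0.00866, limma). The others were Ctsc (-1.67 ± 0.39), Gpnmb (-1.51 ± 0.42), Fgl2 (-1.42 ± 0.4), Cxcr4 (-1.42 ± 0.35), Lsp1 (-1.36 ± 0.3), Fn1 (-1.35 ± 0.34) and Slc37a2 (-1.23 ± 0.28). Leaving out 1 library ended the call of Gpnmb in 5 of 16 fits and of Fgl2 in 6, input replicates 1 and 4 of 12 months among them for both. Ctsc, a lysosomal protease of myeloid cells, had 3.38, 6.38, 2.9 and 3.45 CPM in IP and 70.9, 30.6, 30.5 and 37.4 CPM in input at 12 months, against 8.49, 4.86, 6.03 and 6.05 CPM in IP and 18.3, 20.5, 29.3 and 15.3 CPM in input at 2 months, so that the rise lay in the input and input replicate 1 was the highest. Microglial markers were depleted at each age, with medians of -4.3, -4.85 and -4.64, and 2 of 24 had a lower and 1 a higher ratio at 12 months, near the shares of all genes (7.23% and 4.44%).

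**Figure D5:**
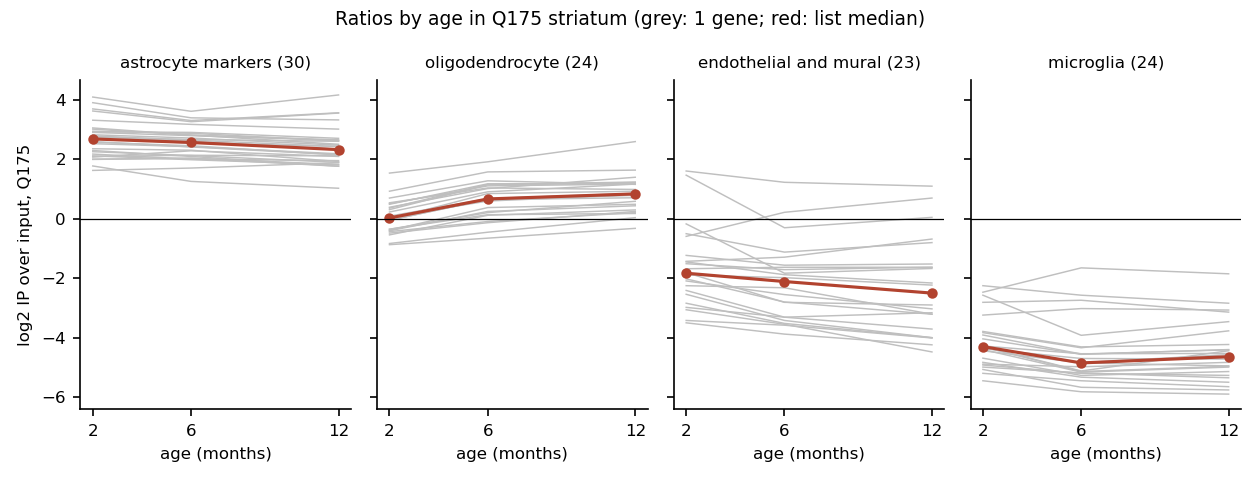
Log2 ratio of IP over input in Q175 striatum at 2, 6 and 12 months (x axis to scale) for 4 marker lists; grey lines are single genes, each fitted from 4 IP and 4 input libraries an age, and red points are list medians, with the number of genes in brackets. The oligodendrocyte median goes through 0.03, 0.67 and 0.84 with age and that of astrocyte markers through 2.69, 2.57 and 2.33.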

How the data were processed

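Per the labels, polyA RNA from the input and from the IP of striatum was sequenced. The deposited values are log2 CPM, one table a library; the submitters' processing notes name STAR, HTSeq, edgeR, limma and mm10, with no versions, and the strand setting is not given in the sources used here. From these log2 values, whole reads were recovered for 100% of values (tolerance 0.01 read, prior count 0.25). Log2 CPM were recomputed from the reads with TMM scaling (30% trimmed by M, 5% by A) within each fit, and tested with limma 3.58.1 in R 4.3.3 with an intensity trend and Benjamini-Hochberg adjustment over all genes tested. Genes needed 10 reads at the median library size in enough libraries and 15 reads in all; called means an adjusted p below 0.05, enriched or depleted a log2 ratio of at least 1 or at most -1 besides. Both copies of 2 duplicated symbols were left out, which took 15652 to 15648 rows. The scripts were tested on simulated data. Samples were grouped by their labels alone.

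The members and gene lists were chosen with earlier results of these data known, so no list count is independent support. Named genes were Htt, Rpl22 and Rpl22l1, the 15 highest and 15 lowest called ratios at a mean of at least 5 CPM with no overlap between groups, the 10 highest and 10 lowest called genes of each interaction at that level, all sodium pump genes, and from each list up to 6 members of smallest p and up to 3 against the list's direction. Some genes that these rules name are not reported here. Symbols of unnamed gene models were passed over. Mitochondrially encoded genes had no row among those tested. The 48 R6/2 and NCAR libraries were not analysed here. Alternatives were deposited totals without TMM, other prior counts, filters and fold thresholds, voom weights, 1 fit over the 48 libraries of the run, and leaving out each library.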

Additional observations from a re-analysis of the deposited data

Results flagged for a closer look

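Single libraries stood apart from the other 3 of their group, by a gap beyond Dixon's 95% critical value, in 28 of 400 groups of 4 values; chance alone gives about 1 in 20. In IP replicate 3 the high values were Atp1b2 at 569 CPM (others 329 to 359), Kcnj10 at 681 (514 to 531), Gja1, a connexin, at 778 (674 to 690), Notch1 at 325 (211 to 220), Pygm at 95.9 (72.6 to 73) and Terc at 0.185 (0.141 to 0.145). The summed ependymal list at 286 CPM (209 to 219), the Notch list at 1240 (982 to 1010) and the Hippo list at 804 (644 to 664) were high there as well. Its low values were Clic6 at 7.07 CPM (9.72 to 10.3) and Hist1h4c at 18.6 (21.8 to 22.3).

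In IP replicate 2 the myeloid genes C1qb at 7.47 CPM (others 3.77 to 4.08), C1qc at 9.43 (4.75 to 4.9) and Itgam at 4.7 (3.21 to 3.4) and the microglial sum at 190 (131 to 134) were high, as were H2-D1 at 1460 (974 to 999) and Atp1b3 at 185 (160 to 164).

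Among input libraries, replicate 1 was high for Aldh1l1 at 101 CPM (83 to 85.7), H2-D1 at 599 (346 to 379) and the A1 sum at 1770 (899 to 997). Replicate 4 was high for Slc17a7 at 55.9 CPM (8.71 to 10.7), Rpl22 at 211 (159 to 160) and Rpl22l1 at 34.3 (25.4 to 26.7), and low for Hmgcs1 at 107 (134 to 138) and Slc17a8 at 9.34 (10.5 to 10.7). Replicate 3 was high for Rps2 at 113 CPM (105 to 106) and low for Mcc at 10.2 (11.6 to 11.9) and Gapdh at 6.57 (7.67 to 7.89).

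Ratios that differed between Q175 and WT mice by the test of the difference were higher in Q175 by 1.51 for Ddit4l, 1.24 for Abhd1, 1.09 for Bmp7, 0.84 for Il17rc, 0.8 for Lpcat2, 0.79 for Ankrd35, 0.69 for Hbegf, 0.67 for Trank1, 0.62 for Id4 and 0.55 for Rnf144a (log2). The differences were -4.37 for C130021I20Rik, -1.46 for Klk8, -1.2 for Emx2os, -1.11 for Sfmbt2 and -1.11 for Rprm. Between 12 and 2 months in Q175 mice they were 1.6 for Abhd11os, 1.56 for St8sia2, 1.4 for Ddit4l, 1.37 for Fbln5, 1.28 for Tagln, 1.27 for Enpp6, 1.25 for Atp10b, 1.16 for Anln, 1.15 for Nfe2l3 and 1.13 for D7Ertd443e. They were -1.67 for Ctsc, -1.6 for Rmrp, -1.51 for Gpnmb, -1.44 for Pax6, -1.42 for Fgl2, -1.42 for Cxcr4, -1.36 for Lsp1, -1.35 for Fn1, -1.24 for Emx2 and -1.23 for Slc37a2.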

How the results depend on the processing

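The count of genes called between IP and input in Q175 mice at 12 months was 10854 with the stricter filter to 12268 with 1 fit over 48 libraries, against 11568, and 10997 to 11531 when 1 library was left out; in WT mice leaving out 1 gave 11563 to 11829. Fold thresholds moved the sets by their construction: 3771 enriched and 4160 depleted at a log2 ratio of 0.5, and 450 and 920 at 2. Leaving out 1 library gave 1941 to 2164 enriched and 2275 to 2348 depleted genes. The genotype test called 57 genes with 1 fit over 48 libraries, against 19; the cause was not tested. It called 10 without IP Q175 replicate 1 and at most 19 in the other fits that leave out a library. The age test called 1279 without IP Q175 replicate 4 of 12 months and 3124 without IP replicate 3 of 12 months, against 1824. With the deposited totals and no TMM factors, Atp1b1 turned to -0.27, Hist1h1c to -0.02 and the A2 median to -0.12, as all ratios shifted down; with 1 library left out Atp1b1 was at -0.02 (without IP Q175 replicate 4) to 0.08. Among the named genes of the main comparison, other prior counts, filters and voom changed no call or sign. Irf7 had an adjusted p of 0.0884 with 1 fit over 48 libraries (limma). In the genotype test Lpcat2 lost its call with the deposited totals (0.0718) and with voom (0.141), Ankrd35 with voom (0.0778), and C130021I20Rik (0.235) and Klk8 (0.22) in the fit over 48 libraries. Abhd1, Lpcat2, Ankrd35, Trank1 and Id4 lost theirs without some libraries. In the age test Gpnmb (voom 0.0885, 48 libraries 0.0607) and Fgl2 (voom 0.086) did. No paired analysis was possible because the labels tie no IP library to an input library.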
